A study of Mus musculus with 16 samples.

Results

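Serum withdrawal on its own, without induction of the MyoD1 transgene, was examined as the accessible regions that differed between 3 differentiating and 4 proliferating ATAC-seq libraries, 7 of the 16 libraries of the study. ATAC-seq uses a transposase that inserts sequencing adapters into open DNA, and a peak marks a stretch where insertions pile up over the background. All libraries came from C2C12iMyoD1, a polyclonal population of the mouse myoblast line C2C12 that keeps its own Myod1 gene and carries an integrated, puromycin-selected Halo-MyoD1 transgene under a doxycycline-responsive promoter. In both groups compared here the cells received vehicle for 24 h (no dox), so the transgene was present but not induced. The proliferating group (GM no dox, replicates 1 to 4) stayed in growth medium and was seeded at 75000 cells per well. The differentiating group (DM no dox, replicates 2 to 4) was moved to low serum with insulin, transferrin and selenium for the same 24 h and was seeded at 300000 cells per well. Medium and seeding density therefore changed together and cannot be told apart. The remaining DM no dox library was left out because the study's methods excluded it on quality grounds. The 7 libraries with doxycycline (DM +dox replicates 2 to 4 and GM +dox replicates 1 to 4), which had the same media and densities, were read at the same regions because the calls were made without them.

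Myoblasts in high serum divide, and removal of serum growth factors lets them leave the cell cycle, switch on muscle genes and later fuse into myotubes. MyoD1 is the basic helix-loop-helix factor at the head of that program. With an E protein it binds the E-box CAGCTG, at promoters and at distal enhancers of muscle genes, and it is already present in proliferating myoblasts. Distal accessible sites of cultured mesenchymal cells also commonly carry AP-1, TEAD and RUNX motifs, and serum acts on AP-1 and SRF through growth factor signalling.

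Every peak list was shortened to the length of the shortest, that of GM no dox replicate 1, by keeping the peaks with the highest −log10 p from MACS2, so that list length did not differ between libraries. Overlapping peaks of the 14 lists with and without doxycycline were merged into 26213 regions, of which 23677 had a peak in at least 1 of the 7 libraries and 7248 in all 7. The −log10 p of the last peak kept ranged from 3.94 to 36.5 in GM and from 11.7 to 32.3 in DM, and the background from 0.339 to 0.992 and from 0.511 to 0.901 fragments per base. The same cut therefore reached much weaker peaks in some libraries than in others. Within regions shared by all 7 libraries, the ranks of GM replicate 4 correlated better with the DM libraries (mean r of 0.688 over regions) than with the other GM libraries (0.622), and GM replicate 1 had the lowest mean r with its own group (0.523). The counts of all-or-none regions and of rank calls, and the CAGCTG test, are given with and without these libraries below. Most other results include them. Of the myoblast markers, Myod1 and Chrna1, a subunit of the muscle acetylcholine receptor, had a promoter peak in all 7 cut lists, whereas Des, Cdh15, Pax7, Myf5, Itga7 and Msc had none. In the whole lists each of these 6 had a promoter peak in 1 to 6 libraries. No endothelial or blood marker of 7 each had one in a cut list. Of 8 fibroblast markers 2 had a promoter peak in a cut list, Pdgfrb (2 of 3 DM and 3 of 4 GM libraries) and Twist2 (1 and 3). Of 7 adipocyte markers 2 had one in any cut list, with Cebpa in all 7 libraries. Of 8 bone and cartilage markers 3 had one in any, with Sox9 in all 7 libraries. Neural and epithelial markers had 1 of 7 each. In the whole lists all 8 myoblast markers had a promoter peak in at least 1 library. So did 5 of 8 fibroblast, 5 of 8 bone and cartilage, 3 of 7 adipocyte and 3 of 7 neural markers. Endothelial, blood and epithelial markers had 1 of 7 each in the whole lists.

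Sequences of leading all-or-none regions, defined below, are shown first. In GM these are the 4 with the best mean rank, and in DM the 4 that follow the Ptrh2 region, whose window overlaps an annotated untranslated region and is not shown. The windows are centred on the summit and named by the nearest or the host gene, on the plus strand of mm10 (GRCm38). Capitals mark the E-box CAGCTG, AP-1 (TGANTCA), RUNX (TGTGGT) and a composite C/EBP-ATF site (TGATGNAAT), on either strand. The first 4 had peaks in DM and the last 4 in GM.
Zmiz1 region, chr14:25505353-25505553: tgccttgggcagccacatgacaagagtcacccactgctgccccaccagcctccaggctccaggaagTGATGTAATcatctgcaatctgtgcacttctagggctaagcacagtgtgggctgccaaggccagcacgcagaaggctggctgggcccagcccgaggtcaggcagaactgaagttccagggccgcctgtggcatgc
Stra6l region, chr4:45851694-45851894: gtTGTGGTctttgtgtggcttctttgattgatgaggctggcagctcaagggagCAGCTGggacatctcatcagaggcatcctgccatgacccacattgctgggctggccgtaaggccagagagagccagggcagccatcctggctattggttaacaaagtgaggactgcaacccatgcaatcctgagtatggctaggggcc
Gfpt2 region, chr11:49811271-49811471: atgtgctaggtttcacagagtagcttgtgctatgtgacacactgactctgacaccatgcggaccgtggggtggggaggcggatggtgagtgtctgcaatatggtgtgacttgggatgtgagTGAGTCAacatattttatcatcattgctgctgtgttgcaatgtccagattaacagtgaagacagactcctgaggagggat
Il12b region, chr11:44390268-44390468: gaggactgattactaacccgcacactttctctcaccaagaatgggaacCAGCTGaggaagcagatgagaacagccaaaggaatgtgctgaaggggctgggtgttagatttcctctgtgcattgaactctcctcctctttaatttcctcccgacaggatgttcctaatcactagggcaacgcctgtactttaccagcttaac
Mt4 region, chr8:94132267-94132467: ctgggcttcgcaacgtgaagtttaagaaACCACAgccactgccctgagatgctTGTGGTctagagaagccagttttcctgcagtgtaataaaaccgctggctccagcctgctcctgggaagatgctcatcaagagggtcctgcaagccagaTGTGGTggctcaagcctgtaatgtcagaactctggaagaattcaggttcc
Luzp1 region, chr4:136518162-136518362: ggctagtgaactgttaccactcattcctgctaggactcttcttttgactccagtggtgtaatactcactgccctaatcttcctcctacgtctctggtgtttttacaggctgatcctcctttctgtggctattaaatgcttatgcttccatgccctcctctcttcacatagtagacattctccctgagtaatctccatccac
Oaf region, chr9:43262016-43262216: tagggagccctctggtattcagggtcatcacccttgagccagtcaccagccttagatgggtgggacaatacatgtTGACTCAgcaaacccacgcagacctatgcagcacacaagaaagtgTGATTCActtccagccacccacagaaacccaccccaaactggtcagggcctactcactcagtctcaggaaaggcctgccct
Tacc1 region, chr8:25304710-25304910: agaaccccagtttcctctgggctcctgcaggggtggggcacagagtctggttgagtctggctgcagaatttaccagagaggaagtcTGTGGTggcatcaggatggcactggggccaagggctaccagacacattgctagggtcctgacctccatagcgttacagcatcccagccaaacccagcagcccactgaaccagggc
The Zmiz1 window held the composite site, the Stra6l window an E-box and a RUNX match, the Il12b window an E-box and the Gfpt2 window an AP-1 site. The Mt4 window held 3 RUNX matches, the Oaf window 2 AP-1 matches, the Tacc1 window 1 RUNX match and the Luzp1 window none of the 4 motifs.

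An all-or-none region had a peak in the shortened list of every library of one medium and in none of the other. There were 233 such regions with a peak in DM (0.984% of 23677) and 247 with a peak in GM (1.04%), spread over 20 chromosomes in each direction. They were mostly distal. Only 18.5% of the DM regions and 19.8% of the GM regions had their summit within 1 kb of a transcription start site, against 41.6% of all regions, and 42.9% and 40.1% lay in introns, against 27.8%. All regions include the 7248 with a peak in all 7 libraries, which by definition cannot be all-or-none, so these shares are not like for like. The median distance of the distal all-or-none regions from a start site was 12.8 kb in DM and 11.6 kb in GM, beside 11.3 kb for all distal regions. Regions with a peak in GM lay within 100 kb of each other in 20 pairs. Among these were 2 regions each at Chst11, Cnn3, Prkar1b and Mast4. Regions with a peak in DM did so in 6 pairs, among them 2 regions each at Dst, Tanc2, Hbp1, Gfi1 and Alk. Such pairs were not counted among all regions, so these numbers are only a description.

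Absence from a cut list was seldom absence of a peak. Ranks of single regions, and the words no peak beside them, refer to the whole lists below, and counts of libraries with a peak to the shortened lists. In the whole lists, 220 of the 233 DM regions had a weaker peak in at least 1 GM library and 13 had none in any, and 237 of the 247 GM regions had one in at least 1 DM library and 10 had none. GM replicate 1 has no whole list beyond the cut. A gap of at least 1000 ranks between the groups, with an absent peak placed behind the end of its list, was present at 155 DM regions and 243 GM regions. This criterion was added after the data were seen, and its counts cannot be compared between the directions. At every DM region the absent peak of GM replicate 1 was placed just behind the cut, where its list ends. A DM region therefore passed only if all its DM ranks lay at least 1000 before that place. The DM lists run past the cut, so their ends set no such limit for GM regions. DM no dox replicate 1, with 1287 peaks in all, had a peak at 4 of the 233 DM regions and at none of the 247 GM regions.

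Which regions were all-or-none depended on the cut. With all deposited peaks there were 118 in each direction, of which 11 and 6 were among those described here, and with lists of 0.5 times the length there were 113 and 135, of which 8 and 9 were. Leaving out a library can only add regions, and did so by over 1.5 times without DM replicate 2 (563 with peaks in DM, 493 in GM), GM replicate 4 (351 and 451), GM replicate 1 (326 and 377), DM replicate 3 (412 and 339) and DM replicate 4 (428 and 322) in at least 1 direction.

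**Figure D1:**
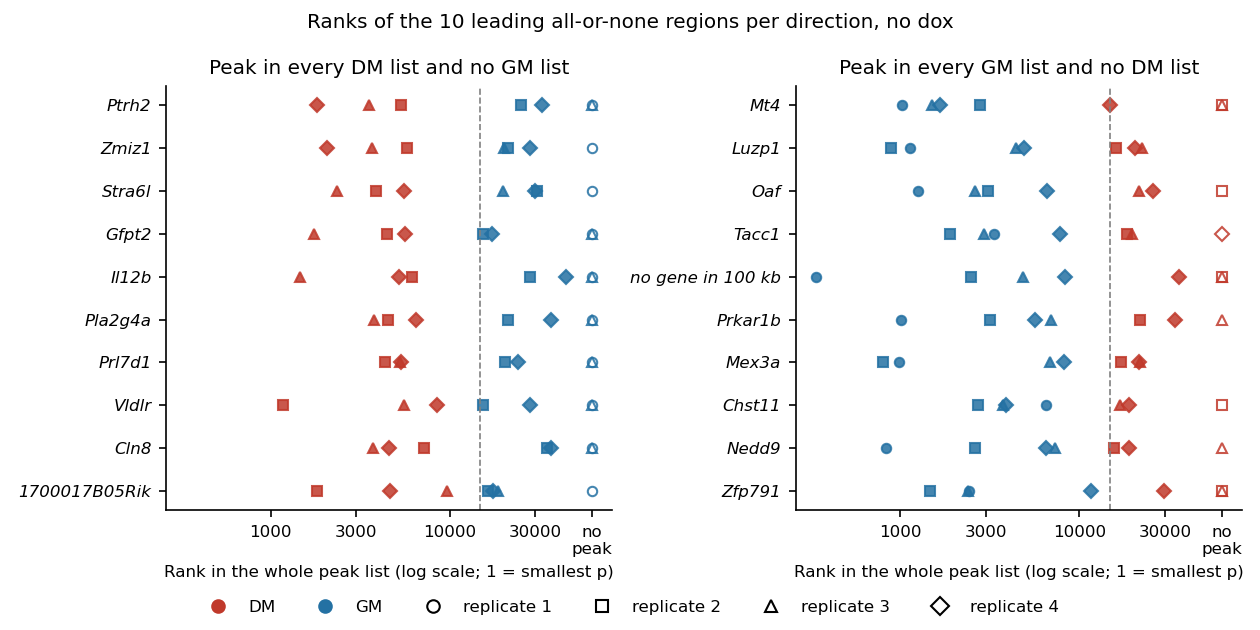
Rank of the strongest peak in each no dox library (x axis, log scale, 1 is the smallest p) at the 10 all-or-none regions per direction with the best mean rank, named on the y axis by the nearest or the host gene. Red is DM, blue is GM, the marker gives the replicate number, the dashed line is the end of the shortened lists and open symbols mark libraries with no peak in the whole list. At Ptrh2 the 3 DM libraries sit between 1819 and 5306, and at the Mt4 region the 4 GM libraries sit between 1028 and 2776.

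The leading region with a peak in DM lay in an exon of Ptrh2 (chr11:86691288-86692100), which encodes a mitochondrial peptidyl-tRNA hydrolase. It ranked 5306, 3553 and 1819 in DM replicates 2, 3 and 4, and 24797 and 32451 in GM replicates 2 and 4. GM replicate 3 had no peak there, and neither did GM replicate 1, which by definition can have none at any DM region. The intronic region of Zmiz1 (chr14:25505084-25505725), a gene for a transcriptional coactivator of the PIAS family, ranked 5740, 3691 and 2074 in DM and 21001, 19935 and 28098 in GM replicates 2, 3 and 4. A region 42.9 kb from the start of Vldlr (chr19:27173710-27174274), the very low density lipoprotein receptor, ranked 1165, 5568 and 8431 in DM and 15208 and 27799 in GM replicates 2 and 4. In GM replicate 2 it missed the cut narrowly.

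The other leading DM regions lay in introns of Stra6l, a receptor for retinol binding protein, of Gfpt2, an enzyme at the start of the hexosamine pathway, and of Pla2g4a, the cytosolic phospholipase A2 that releases arachidonic acid. The rest lay between genes, nearest to Il12b (a subunit of interleukin 12 and 23), Prl7d1 (a hormone of the prolactin family), Cln8 (a membrane protein of the endoplasmic reticulum) and 1700017B05Rik. Their mean ranks in DM ran from 3937 to 5371. The best rank of any GM library at the 10 regions was 15208. In the shortened +dox lists, 7 of the 10 had a peak in all 3 DM libraries and none of the 10 in more than 1 GM library.

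The strongest all-or-none region of either direction had its peak in GM (chr8:94131974-94132552). It lay between genes, 4.83 kb from the start of Mt4, a member of the metallothionein cluster, whose proteins bind zinc and copper. It ranked 1028, 2776, 1505 and 1675 in GM replicates 1 to 4, ranked 14798 in DM replicate 4, and DM replicates 2 and 3 had no peak. With doxycycline it ranked 1121 to 6851 in GM, and 28125, 16518 and 21869 in DM, beyond the shortened lists. Another GM region lay 79.5 kb away, nearest to Ogfod1. The intronic region of Luzp1 (chr4:136517873-136518559), which encodes a leucine zipper protein of the actin cytoskeleton and the cilium, ranked 1138, 884, 4452 and 4891 in GM and 15982, 22306 and 20451 in DM. All 7 libraries had a peak there in the whole lists.

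Other leading GM regions lay in introns of Prkar1b, a regulatory subunit of protein kinase A, of Chst11, a chondroitin sulfotransferase, and of Nedd9, a focal adhesion scaffold. The remaining 5 were between genes, nearest to Oaf, Tacc1 (a centrosomal coiled-coil protein), Mex3a (an RNA-binding protein) and Zfp791, with 1 on chromosome 8 (chr8:126809303-126809751) that had no coding start site within 100 kb. Mean ranks in GM of the leading 10 ran from 1746 to 4460. The best rank in any DM library at these 10 was 14798. In the shortened +dox lists each of the 10 had a peak in 3 or 4 GM libraries, and 5 of the 10 in no DM library.

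Ranks within the 7248 regions with a peak in all 7 libraries were tested next, to find regions that stayed open in both media and changed in relative strength. The −log10 p values were turned into normal scores within each library, where 0 is the median region and a difference of 1 is 1 standard deviation of the score, and compared with limma. At a Benjamini-Hochberg adjusted p under 0.05, 3 regions rose in DM (0.0414% of those tested) and 7 fell (0.0966%). At an unadjusted p under 0.05 there were 734 regions (10.1%), 270 higher and 464 lower.

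The largest change was at a region 83.2 kb from the start of Cxcr4 (chr1:128508787-128509360), the receptor for the chemokine CXCL12. It ranked 152, 452, 1943 and 2007 in GM replicates 1 to 4 and 13102, 13689 and 12659 in DM replicates 2 to 4. Its score fell by 3.22 (DM minus GM of −3.22, SE 0.43, limma adjusted p = 0.0012), from the 85.0th percentile (SD 12.7, n = 4) to the 2.43rd percentile (SD 1.25, n = 3). It went from among the strongest peaks of the growth medium libraries to among the weakest kept in DM.

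Introns held 4 of the other 6 regions that fell. They lay in Gas7, a growth-arrest-specific gene, in Cpne2, which encodes a calcium-dependent phospholipid-binding copine, in Iffo2, which encodes an intermediate filament family member, and in Col27a1, a fibrillar collagen gene, where the nearest start was that of Orm1. Their score differences were −2.45, −2.17, −1.93 and −2.16, with limma adjusted p values of 0.0192, 0.0269, 0.0402 and 0.04997. A region on chromosome 3 (chr3:41213464-41213966) with no coding start within 100 kb fell by 2.68 (adjusted p = 0.0401), and one 20.1 kb from Arsi, a sulfatase gene, fell by 1.56 (adjusted p = 0.0448). The Arsi region stayed among the stronger peaks in DM, at ranks 1098, 985 and 4130, after ranks 44 to 211 in GM.

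Of the 3 regions that rose, the exonic region of Iqcn (chr8:70710215-70711000) had the largest difference. It ranked 904, 562 and 814 in DM and 9056, 6718, 11903 and 8295 in GM (score difference 2.31, SE 0.40, limma adjusted p = 0.0192). The second lay in an exon of Myom2 (chr8:15072515-15073305), the gene for M-protein of the sarcomere M-band, a structural gene of contractile muscle. It ranked 1488, 3105 and 2031 in DM and 13026, 9788, 9952 and 13388 in GM, with a score difference of 2.23 (SE 0.43, adjusted p = 0.0401). The third lay 19.9 kb from the start of Ifnar2, a subunit of the type I interferon receptor (chr16:91352283-91353211, difference 2.00, SE 0.39, adjusted p = 0.0401). It ranked 743, 1805 and 1229 in DM and 7816 to 10460 in GM.

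**Figure D2:**
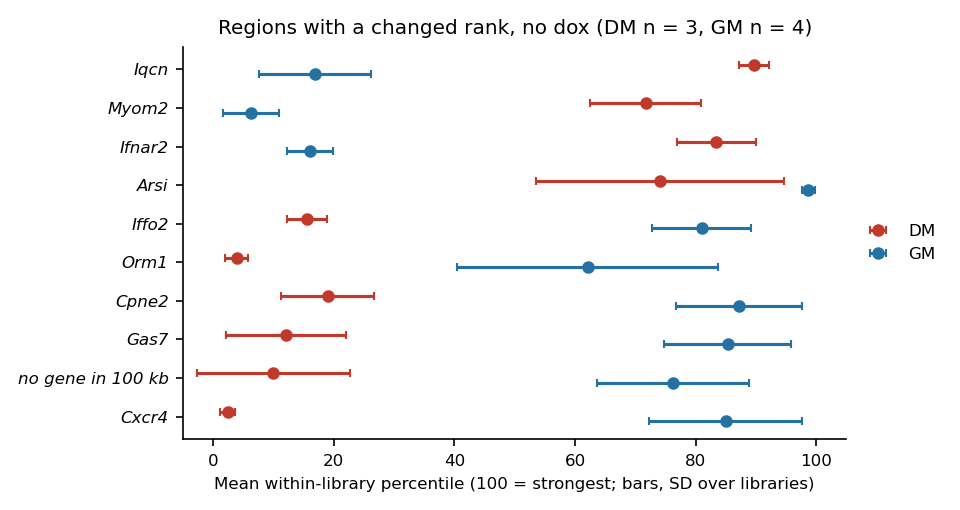
Mean within-library percentile (x axis, 100 is the strongest of 7248 regions) of the 10 regions with a changed rank, named by the nearest coding start (y axis). Points are means over 3 DM (red) or 4 GM (blue) libraries and bars are SD. Cxcr4 drops from 85.0 to 2.43 and Iqcn rises from 16.9 to 89.7, while Arsi stays at 74.1 in DM.

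These calls were few and moved with single libraries. Leaving out each library in turn gave 0 to 8 regions that rose and 1 to 45 that fell. Without GM replicate 4 there were 8 and 45, without GM replicate 1 there were 6 and 12, and without DM replicate 3 there were 0 and 1. Without DM replicate 2 there were 1 and 8, and without DM replicate 4 there were 0 and 2. Without GM replicate 2 there were 1 and 1, and without GM replicate 3 there were 0 and 2. Of the named regions only that of Cxcr4 was called in each of these fits (limma adjusted p of 0.00044 to 0.0357). Without DM replicate 3 the others had limma adjusted p values of 0.0607 to 0.186. Ranked by fold enrichment in place of p, 0 rose and 1 fell. The score difference at Cxcr4 was −3.91 among replicates numbered 1 or 2 and −2.59 among those numbered 3 or 4.

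The 13 gene lists covered muscle, growth and matrix genes, and a region counted for a list when its nearest coding start or its host gene was a member. The counts in each list should be read beside the 0.984% (DM) and 1.04% (GM) found over all regions. Myogenic regulators had 95 regions, 0 with peaks only in DM and 2 only in GM. Fusion and adhesion genes had 97 regions with 0 and 1, and genes of the sarcomere 34 with none, the Myom2 region being their only rank call. Synapse and excitation-contraction genes had 35 with 1 and 0, inhibitors of myogenic factors 59 with none, genes of cell cycle exit 50 with none, and proliferation genes 57 with none. In the 20 tested regions of cell cycle exit genes the median score difference was 0.66, beside 0.06 over all regions tested, with no call. It was −0.37 for the inhibitors (17 regions) and between −0.32 and 0.05 for the other muscle and growth lists named here and for TEAD, YAP and actin targets (26 regions, −0.32).

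The Myod1 region lay 38.8 kb from its start (chr7:46337335-46337911) and ranked 14311, 13667, 13051 and 10077 in GM and 14887, 18901 and 15603 in DM. The promoter of Nfix, a nuclear factor I gene that acts in fetal muscle, ranked 14225, 12914, 12327 and 11878 in GM, 20626 and 15004 in DM replicates 2 and 4, with no peak in DM replicate 3. Many of the ranks at Myod1 and Nfix lay close to the end of the shortened lists. The intronic region of Cdh15 (chr8:122851575-122852238), which encodes M-cadherin of myoblast contacts, ranked 9442, 9060, 14546 and 12247 in GM and 17266, 22385 and 31455 in DM. The Musk region (chr4:58288761-58289159), in an intron of the receptor kinase gene of the neuromuscular junction, ranked 8232, 9117 and 13663 in DM and 21166 and 20529 in GM replicates 2 and 4. In the shortened +dox lists the Musk region had a peak in 1 of 3 DM and 2 of 4 GM libraries. The Myod1 and Nfix regions each had one in 3 DM and 3 GM libraries, and the Cdh15 region in 1 and 4.

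Matrix and TGF-beta genes, the list with the most regions, had 4 of 172 with peaks in GM and 1 in DM. The 4 lay near Col1a2 (72.4 kb), a chain of type I collagen, in an intron of Ltbp2, near Ltbp1 (42.1 kb), both latent TGF-beta binding proteins, and 63.8 kb from Tgfb3, a TGF-beta ligand, in an intron of Ttll5. The Ltbp1 region ranked 1519, 3081, 12730 and 9952 in GM and 16454, 18410 and 18622 in DM. The Tgfb3 region ranked 5688, 3489, 10309 and 7178 in GM and 20118 in DM replicate 2, with no peak in DM replicates 3 and 4. The DM region lay in an exon of Col12a1, a fibril-associated collagen, at ranks 4674, 10593 and 14300. The median score difference of the 45 tested matrix regions was −0.25, with no call.

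Serum-response and cytoskeletal genes had regions in both directions. Of 132 regions of AP-1 and serum response genes, 2 had peaks in DM, in an intron of Atf3 (ranks 11877, 11268 and 11627) and 10.5 kb from Klf4 (14440, 12800 and 8538). The other had its peaks in GM, 1.69 kb from Fos, the immediate-early AP-1 subunit, at ranks 2699, 12143, 11515 and 11494, with 16426 and 18011 in DM replicates 3 and 4. In the shortened +dox lists the Fos region had a peak in 3 DM and 4 GM libraries, the Atf3 region in 3 and 3, and the Klf4 region in 2 and 0. Of 80 regions of TEAD, YAP and actin targets, 1 had peaks in DM, in an intron of Tead1, at ranks 3023, 14329 and 10764. The other 2 were near Cnn3, which encodes an actin-binding calponin, and in the stronger of these, in an intron of Slc44a3 (chr3:121481476-121482111), GM ranks were 2957, 4491, 13687 and 8478. Notch genes (59 regions) had a GM region in Megf10, a receptor of satellite cells, and IGF and FOXO genes (57) one near Pdk4, a kinase that restrains pyruvate dehydrogenase, at ranks 4452, 5139, 7857 and 3638. The 28 tested regions of sterol and fatty acid synthesis genes had a median score difference of 0.03, with no call.

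Sequence content of the distal peaks was compared library by library, to ask which motifs accompanied the change of medium. For each library the share of distal peaks (6693 to 8353 per library) with a given hexamer or motif within 100 bp of the summit was taken, over every hexamer, counted together with its reverse complement, and 22 longer motifs. No feature passed an adjusted p of 0.05 in limma (0.0% of 2102), and 213 had an unadjusted p under 0.05. The leading features are therefore given as values. With doxycycline 4 features passed, all higher in DM (0.19%).

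The MyoD-type E-box CAGCTG was found in 23.4%, 22.8% and 25.9% of distal peaks in DM replicates 2, 3 and 4 and in 19.6%, 19.5%, 19.8% and 21% in GM replicates 1 to 4. The groups did not overlap (24.0% ± 1.64, SD, n = 3, against 20.0% ± 0.707, SD, n = 4, limma adjusted p = 0.0864). Among replicates numbered 1 or 2 DM exceeded GM by 3.79 points, and among those numbered 3 or 4 by 3.94 points. With doxycycline the means were 27.7% and 22.4% (adjusted p = 0.0607). Leaving out each library in turn gave an adjusted p for CAGCTG of 0.046 (without DM replicate 2) to 0.368 (without GM replicate 2), with 0.116 without GM replicate 1 and 0.0889 without GM replicate 4. It was 0.0224 with the shorter lists, 0.00619 with all deposited peaks and 0.00141 with peaks ranked by fold enrichment, 0.00371 with replicate numbers 1-2 against 3-4 as a covariate, 0.899 with promoter peaks included and 0.682 within 50 bp of the summit, so the call depended on these settings. The E-box CACGTG also did not overlap between the media (3.87% ± 0.111 in DM and 3.27% ± 0.212 in GM, adjusted p = 0.162). The E-box CACCTG overlapped without doxycycline, at 7.71 to 8.54% in DM and 5.89 to 8.18% in GM (limma adjusted p = 0.373). Only GM replicate 1 (8.18%) overlapped with DM, and GM replicates 2 to 4 had 6.0%, 6.79% and 5.89%. With doxycycline CACCTG was found in 10.2% of DM and 6.62% of GM peaks on average (limma adjusted p = 0.000121). The difference between the arms was not tested.

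Several other hexamers led in DM, and each is given with its mean share in DM against GM. GATTGC was found in 6.16% against 5.32%, TTGCAA in 4.65% against 3.95% and GTTGCA in 6.95% against 5.91%, and with ATTGCA they join into GATTGCAAC. GATGCA was found in 9.17% against 8.15%, GCATCA in 9.62 to 10.4% against 8.75 to 9.16% (lowest and highest library) and ACATCA in 12.4% against 11.2%. TGCCAA was found in 21.2% against 18.8%, and ACAGCT, which shares most letters with the E-box, in 24.5% against 22.6%. ATTGCA was found in 7.83%, 7.91% and 8.35% of DM peaks and in 6.76%, 6.64%, 6.98% and 6.83% of GM peaks (adjusted p = 0.0864). Such sequences occur in C/EBP motifs and in the composite site that dimers of C/EBP and ATF factors bind. The palindromic C/EBP motif TTGCNNAA itself overlapped between the media (8.87% ± 0.354 in DM, 8.52% ± 0.261 in GM, adjusted p = 0.819).

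The composite TGATGNAAT was added after these hexamers had been seen. Without doxycycline it lay in 1.46%, 1.99% and 2.24% of distal peaks in DM and in 1.11%, 1.17%, 1.08% and 1.03% in GM, values that chose it and carry no test. The hexamers that led to it came from the no dox libraries, but motifs were chosen with earlier results of these data known. The +dox libraries are therefore not a fully independent test of it. In them it lay in 1.48%, 1.64% and 1.82% in DM replicates 2, 3 and 4 and in 1.02%, 1.30%, 1.04% and 0.945% in GM replicates 1 to 4. Every DM library was above every GM library there, a difference of 0.567 percentage points (one-sided exact permutation p = 0.0286, the smallest that 3 against 4 libraries allow). Among replicates numbered 1 or 2 it was 0.319 points, and among those numbered 3 or 4 it was 0.732.

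In GM the leading hexamers were mostly rich in C and G. AGACCC was found in 6.89%, 6.37% and 6.44% of DM peaks and in 8.28%, 7.75%, 7.72% and 7.80% of GM peaks (adjusted p = 0.0864). In mean shares of DM against GM peaks, AGGGTC was found in 6.13% against 7.57%, CCCCCA in 11.6% against 13.5%, AAGGGG in 9.19% against 10.6% and AGTGGG in 13.8% against 15.4%. CGACCC was found in 1.24% against 1.56%, GCCCCC in 7.52% against 8.67%, GGTCTA in 4.04% against 4.69% and ACCCCT in 8.82% against 9.81%. GTGGGA was found in 14.9% against 16.9% and is contained in GTGGGAA, the motif of RBPJ, the DNA-binding factor of Notch signalling. That motif was found in 4.72% ± 0.159 of DM and 5.49% ± 0.240 of GM peaks, without overlap (adjusted p = 0.153). RUNX (TGTGGT) likewise did not overlap, at 31.6% ± 0.376 in DM and 33.6% ± 0.899 in GM (adjusted p = 0.379). The share with MEF2 motifs, which partner MyoD1 at muscle genes, was 1.22 to 1.47% in DM and 1.46 to 1.82% in GM (adjusted p = 0.428). AP-1 was by far the most common of these motifs, in 53.6% ± 1.90 of DM and 52.5% ± 4.07 of GM peaks, and TEAD was found in 21.2% ± 1.70 and 21.7% ± 1.52. Their ranges overlapped.

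**Figure D3:**
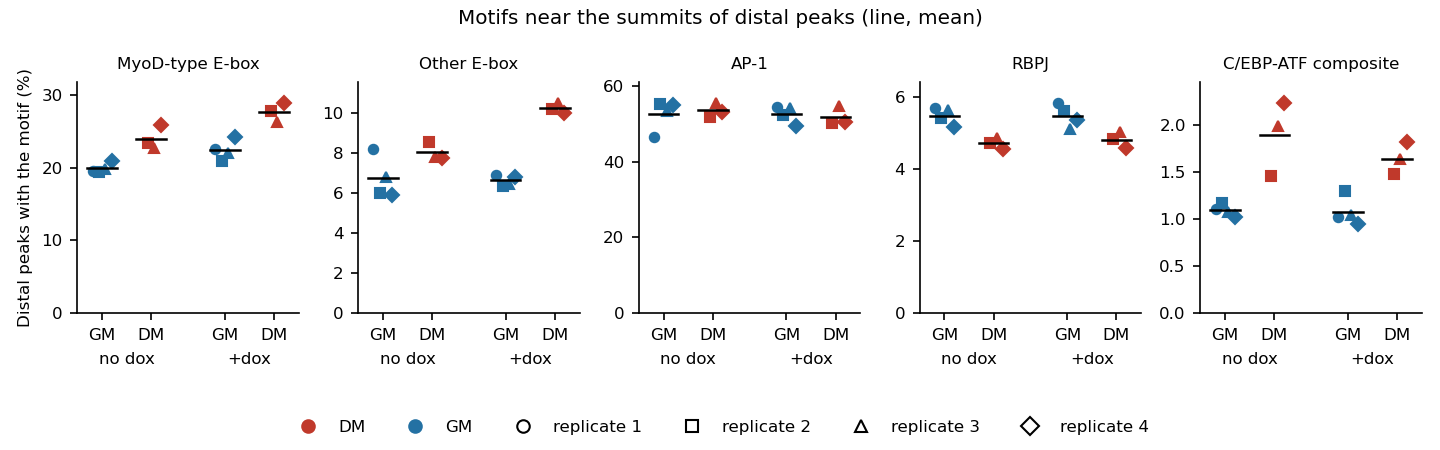
Percent of distal peaks with each motif near the summit (y axes, from 0) in every library, for GM (blue) and DM (red) without and with doxycycline. The marker gives the replicate number, lines are group means and "Other E-box" is CACCTG. The CAGCTG E-box averages 24.0% in DM and 20.0% in GM without doxycycline, and AP-1 ranges overlap.

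At the all-or-none regions themselves the same motifs were counted in the window around the summit, for the 190 distal DM regions and 198 distal GM regions beside all 13833 distal regions. These counts describe the regions and have no test. CAGCTG was present in 34.2% of DM regions, 15.2% of GM regions and 21% of all. CACCTG was present in 11.6%, 3.54% and 8.0%. RUNX was present in 31.6%, 44.9% and 31.8%, and the motif TCAGGTT of sine oculis homeobox factors, which act upstream of the myogenic factors, in 1.58%, 5.56% and 2.80%. AP-1 was present in 47.9%, 47.5% and 49.8%, and TEAD in 14.7%, 20.7% and 20.7%.

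The composite C/EBP-ATF site was present in 15 of the 190 distal DM regions (7.89%), in 3 of the 198 distal GM regions (1.52%) and in 228 of all 13833 (1.65%). The site was added after hexamers of the same no dox lists had been seen, so these shares are only a description. The DM regions included introns of Zmiz1, Tead1, Prune2, Arhgap33, Ank, Pmvk and Slc24a3 and an exon of Cxcl9. The site in Zmiz1 read TGATGTAAT (chr14:25505419-25505427), as in Tead1 and Arhgap33, and that in Prune2 and Ank read TGATGCAAT. Of the 15 DM regions, only those of Tead1, Arhgap33, Ank and Prune2 had a peak in all 3 DM and no GM shortened +dox list. Of all 233 DM regions, 37 did so (15.9%). The Cxcl9 region had a peak in 3 DM and 3 GM +dox lists, and that near Mocs2 in 2 and 2. In the whole lists the Tead1 region ranked 17497 to 24384 in GM +dox. The 3 GM regions with the site were near Fbln2, in an intron of Ctsb and in an intron of Exoc6.

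Regions were called without the +dox libraries, whose peaks entered only the merging of overlapping peaks, so the whole set could be read in them. Merging over the 7 no dox lists alone gave 234 and 247 all-or-none regions, among them all 233 and 247. In the shortened +dox lists, of the 233 DM regions, 54.5%, 66.5% and 67.4% had a peak in DM +dox replicates 2, 3 and 4, and 24.0%, 17.2%, 18% and 19.7% in GM +dox replicates 1 to 4. Of the 247 GM regions, 35.2%, 17.0% and 11.7% had a peak in DM +dox and 81.0%, 86.2%, 71.3% and 61.1% in GM +dox. The media were separate in both sets. The contrast of the 2 shares differed by 96.6 percentage points between the media (one-sided exact permutation p = 0.0286, the smallest that the 35 labellings allow), with 82.3 among replicates numbered 1 or 2 and 99.9 among those numbered 3 or 4. DM +dox replicate 2 showed the set least.

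**Figure D4:**
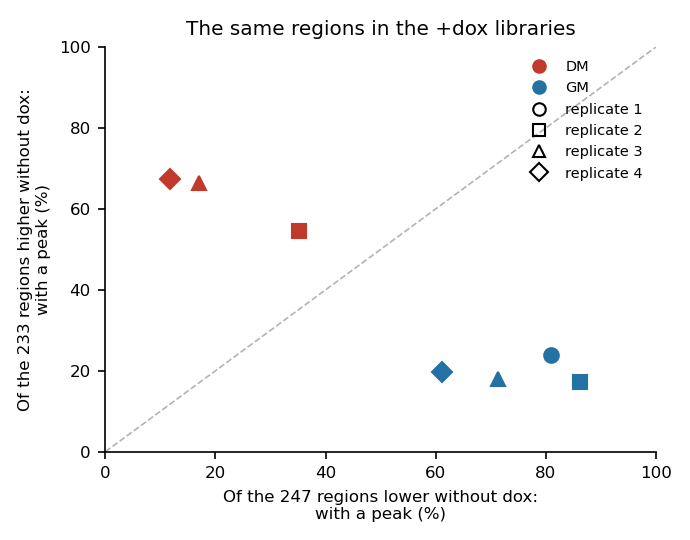
Percent of the 233 DM regions (y axis) and of the 247 GM regions (x axis), both chosen without doxycycline, that had a peak in the shortened list of each +dox library. Red is DM, blue is GM, the marker gives the replicate number and the dashed line marks equal shares. The 3 DM libraries lie above the line, at 54.5 to 67.4% of DM regions, and the 4 GM libraries below it, at 17.2 to 24.0%.

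Region by region, 37 of the 233 DM regions (15.9%) were also all-or-none in the same direction with doxycycline, which is 14.9% of the 249 such regions of that arm. For GM regions the number was 49 (19.8% of 247 and 19.8% of 248). None was all-or-none in the opposite direction. Of the rank calls, 2 that rose and 5 that fell had a peak in all 7 shortened +dox lists, and the contrast of their mean scores differed by 3.03 between the media (exact permutation test, one-sided p = 0.0286, again the lowest attainable). It was 2.12 and 3.44 within the same subsets of numbers. The Cxcr4 region went from a mean score of 1.71 in GM to −0.76 in DM, and the Iqcn region had mean scores of −0.36 and 1.48. At Myom2 the scores were 0.76 and 1.11, since the GM +dox libraries ranked that region 559 to 5659.

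The effect of serum withdrawal with and without doxycycline was compared by an interaction term over the 6068 regions with a peak in all 14 libraries. No region had an adjusted p under 0.05 in limma in either direction (0.0% each), and 103 (1.70%) had an unadjusted p under 0.05. The interaction at Myom2, −1.95 (SE 0.59), had an unadjusted p of 0.00287 and an adjusted p of 1. At Cxcr4 it was 0.79 (SE 0.59) and at Iqcn −0.48 (SE 0.58), each with an adjusted p of 1. This does not show that the media act alike in both arms.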

How the data were processed

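Chromatin accessibility was profiled by ATAC-seq in the 7 libraries compared here, and in 7 +dox libraries read at the same regions. Per the study's methods, the authors processed reads with nf-core/atacseq against mm10, removed blacklisted regions, and used MACS2 to call narrow peaks separately for every library. deepTools is also named in the submitters' processing notes. The deposited lists give a fold enrichment over background (a ratio), the −log10 of the p-value and q-value, and a summit, in rows with a score that was not used. Read counts were not used. Ranks are comparable only within a library, so a change in rank is relative to its other peaks.

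Lists were shortened to equal length by −log10 p, and regions were merged where peaks overlapped. Background coverage was solved from fold and p of peaks below a −log10 p of 30, since each corresponds to a whole number of fragments (relative tolerance 0.0005 in −log10 p, 100% of peaks). Genes were taken from GENCODE M21 and sequence from GRCm38. Normal scores and logit shares (0.5 added to each count) were fitted with limma 3.58.1 with trend in R 4.3.3 and Benjamini-Hochberg adjustment. Single values were tested with exact permutation tests in scipy 1.17.1. Labels call the replicates biological, and what they share is not stated. The named items were the 10 all-or-none regions per direction with the best mean rank, all called regions with separate groups, list members with such a region, the 10 features of smallest p per direction and the fixed motifs. Members, gene lists and motifs were chosen with earlier results of these data known. Some items that met these rules are not reported here.

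On simulated ranks of 7248 regions, limma called 47% of differences of 2 and 7% of differences of 1. On 2102 simulated features it called 85% of logit differences of 0.2, with a spread between libraries that was set and not estimated. In the data CAGCTG, with a logit difference of 0.23, was not called (limma adjusted p = 0.0864). The 85% may therefore not hold for the data. Alternatives were other list lengths and rankings, other unions, windows and start site distances, covariates, and leaving out each library. The cut enters the results, as the weakest kept peak differs between libraries. Shares of peaks carry counting error that the spread between libraries includes.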

Additional observations from a re-analysis of the deposited data

Results flagged for a closer look

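In 5 of 114 groups of 4 GM libraries, 1 library lay farther from the others than Dixon's 95% limit for 4 values allows, and chance alone marks about 1 group in 20. AGACCC was found in 8.28% of distal peaks of GM no dox replicate 1, against 7.72 to 7.80% in the others. NRF2 and MAF sites (TGACNNNGC) were found in 15.7% of distal peaks of the same library, against 18 to 18.4%. The motif TCAGGTT was found in 2.53% of those of GM no dox replicate 3, against 2.91 to 2.98%. With doxycycline, MEF2 motifs were found in 2.18% of GM replicate 2, against 1.81 to 1.86%, and CGACCC in 1.39% of GM replicate 4, against 1.55% in each of the others.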

How the results depend on the processing

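The all-or-none regions (233 in DM, 247 in GM) numbered 113 and 135 with lists of 0.5 times the length, 118 and 118 with all deposited peaks, and 155 in DM with a gap of at least 1000 ranks, a criterion added after the data were seen. The end of the GM replicate 1 list limits the gap criterion in the DM direction. With DM replicate 1 included, 4 remained in DM. Leaving out each library gave 276 to 563 and 291 to 493. The rank calls (3 rose, 7 fell) numbered 0 and 0 with those shorter lists or with percentile ranks, 19 and 53 with all peaks, 0 and 1 by fold enrichment, 13 and 26 with a GC correction, 42 and 76 with a peak in at least 3 libraries, 2 and 2 without trend, and 10 and 29 with replicate numbers 1-2 against 3-4 as a covariate. Leaving out each library gave 0 to 8 and 1 to 45. Motif features (0 and 0) numbered 1 and 0 with the shorter lists or with all deposited peaks, 3 and 4 by fold enrichment, 19 and 20 with the covariate and 0 and 1 with distal peaks over 5 kb from a start. Leaving out each library gave 0 to 3 and 0 to 4. The cause of these shifts was not tested.

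What same-numbered replicates share is not stated, and the check of the numbers did not meet the bar for treating them as pairs. Deviations from the group means correlated at 0.214, 0.0596 and 0.42 for numbers 2, 3 and 4, and 2 of 3 DM libraries were closest to their own number. With the replicate block, 71 regions rose and 152 fell (86 and 137 with a GC correction as well), and 32 and 36 motif features passed, CAGCTG among them (limma adjusted p = 0.00275). Pairing is thus neither shown nor excluded.

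In the +dox libraries the contrast for all-or-none regions ranged from 89.1 to 98.6 points over other lists (exact p = 0.0286) and from 89.6 to 108 leaving out each library (exact p = 0.05 to 0.0667, the smallest possible). For rank calls it was 2.08 with all peaks, with no value by fold enrichment, where no call rose, and 2.64 to 3.52 leaving out each library. For the composite site it was 0.272 to 0.762 points, and 0.482 to 0.65 leaving out each library. The interaction gave no call under any alternative. GCCCCC changed sign when promoter peaks were included (logit difference 0.03, limma adjusted p = 0.932).

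List length limits these results. GM replicate 1 gave the shortest list, so weaker peaks there cannot be ranked. Its background was 0.771 fragments per base, beside 0.339 in GM replicate 2, whose list was longer. The cause of the short list was not tested. On simulated ranks, differences of 1 score unit were mostly not called.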

Other observations

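A list of 36 genes of the integrated stress response, the program in which ATF4 and its partners raise amino acid transport and antioxidant genes, was written after the leading hexamers and regions had been seen, so its counts are a description and no independent evidence. Of its 80 regions, 5 had peaks in every DM and no GM library (6.25%, beside 0.984% of all regions) and 0 the reverse. They lay in introns of Atf3, a stress-induced factor of the ATF family, of Slc7a11, the cystine transporter, and of Jdp2, an AP-1 family repressor, and near Trib3, a pseudokinase, and Vldlr. The Trib3 region (chr2:152349708-152350287) ranked 14486, 4934 and 11378 in DM and 46680 in GM replicate 4, with no peak in the other GM libraries. The Jdp2 region (chr12:85629804-85630493) ranked 10537, 12075 and 9565 in DM and 19420 in GM replicate 4. The Slc7a11 region (chr3:50438114-50438534) ranked 8799, 12968 and 14046 in DM and 27945 and 36295 in GM replicates 2 and 4. In the +dox lists shortened to equal length, the Jdp2 and Vldlr regions had a peak in all 3 DM libraries and no GM library, the Atf3 region in 3 DM and 3 GM libraries, and the Slc7a11 region in none. Weaker peaks lay further down the whole +dox lists at these regions, as at Jdp2, which ranked 17169 to 35382 in GM. None of the 29 regions of the list tested by rank was called with limma, and their median score difference was 0.29, beside 0.06 over all regions tested.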
